A study of Mus musculus with 6 samples.

Results

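Aquaporins are the membrane channels through which water, and for some members glycerol, crosses cell membranes, and this account follows 6 of them together with Lim2 in the embryonic mouse lens. The 7 genes (Mip, Lim2, Aqp1, Aqp3, Aqp4, Aqp5 and Aqp11) were picked by name out of 41128 listed features. Earlier results of these data were known when they were chosen. RNA from whole lenses at embryonic stage E13.5 was sequenced from 3 libraries of Prox1 cKO lenses, genotype Prox1 f/f MLR10Cre+, and from 3 libraries of wild type lenses. All 6 libraries carry the strain label C57Bl/6, and every library came from a pool of 30 lenses. MLR10Cre expresses Cre recombinase in epithelial and fibre cells of the lens under a modified alpha A crystallin promoter. No library has the Cre transgene alone or the floxed alleles alone, so an effect of the transgene or of the floxed background and an effect of losing Prox1 cannot be told apart. The pools are labelled as biological replicates, but the labels do not say whether litters were shared. A p-value here therefore sets the difference between the groups against the spread between these pools only.

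The lens is a vessel-free ball of elongated fibre cells under a single sheet of epithelium, and it depends on membrane channels and junctions to move water and solutes. Mip, also called aquaporin 0, is the most abundant membrane protein of fibre cells, where it conducts water weakly and also holds neighbouring membranes close together. Lim2, also called MP20, is the next most abundant fibre membrane protein; it has 4 membrane-spanning helices and no channel pore is established for it. Mutations of either gene cause cataract in mice and in people.

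Library totals lay between 9082219 and 28391662 counts. The 5 lens fibre markers (Cryaa, Cryba1, Crybb1, Crygd and Crygs) were all present in every library and summed to between 18678 and 21243 CPM in Prox1 cKO libraries, against 91951 to 173775 CPM in wild type libraries, where library 1 had the lowest sum. CPM (counts per 1e6 library counts) here and below are scaled by TMM, a correction for library composition, unless RPKM is named. Prox1 itself had 695 ± 39.9 CPM in cKO lenses and 1128 ± 179 CPM in wild type lenses (SD, n = 3 each), counted over all its exons, including any that Cre does not remove. Of 14271 genes tested by the edgeR quasi-likelihood test with Benjamini-Hochberg adjustment over all of them, 32.6% passed the adjusted p threshold of 0.05. The share higher in cKO lenses was 15.9% and the share lower was 16.8%. With libraries scaled by their totals alone the numbers were 5423 higher and 945 lower, against 2263 higher and 2396 lower with TMM, and the median log2 change of all genes was 0.39, against 0.04.

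Both fibre membrane genes fell in Prox1 cKO lenses, Mip 13.3-fold and Lim2 10.3-fold, while 3 aquaporin genes at far lower levels rose. Of the 7 genes, 6 had enough counts to be tested: Mip and Lim2 fell, Aqp1, Aqp3 and Aqp4 rose, the call of Aqp3 depending on every library, and Aqp11 was not called. Aqp5 had too few counts for the test. The libraries of the groups did not overlap for 5 of the 6 tested genes, against 50.1% of all tested genes. The knockout libraries all lay above the wild type libraries for Aqp1, Aqp3 and Aqp4, which was so for 24.4% of all genes, and all below them for Mip and Lim2, which was so for 25.7%.

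**Figure D1:**
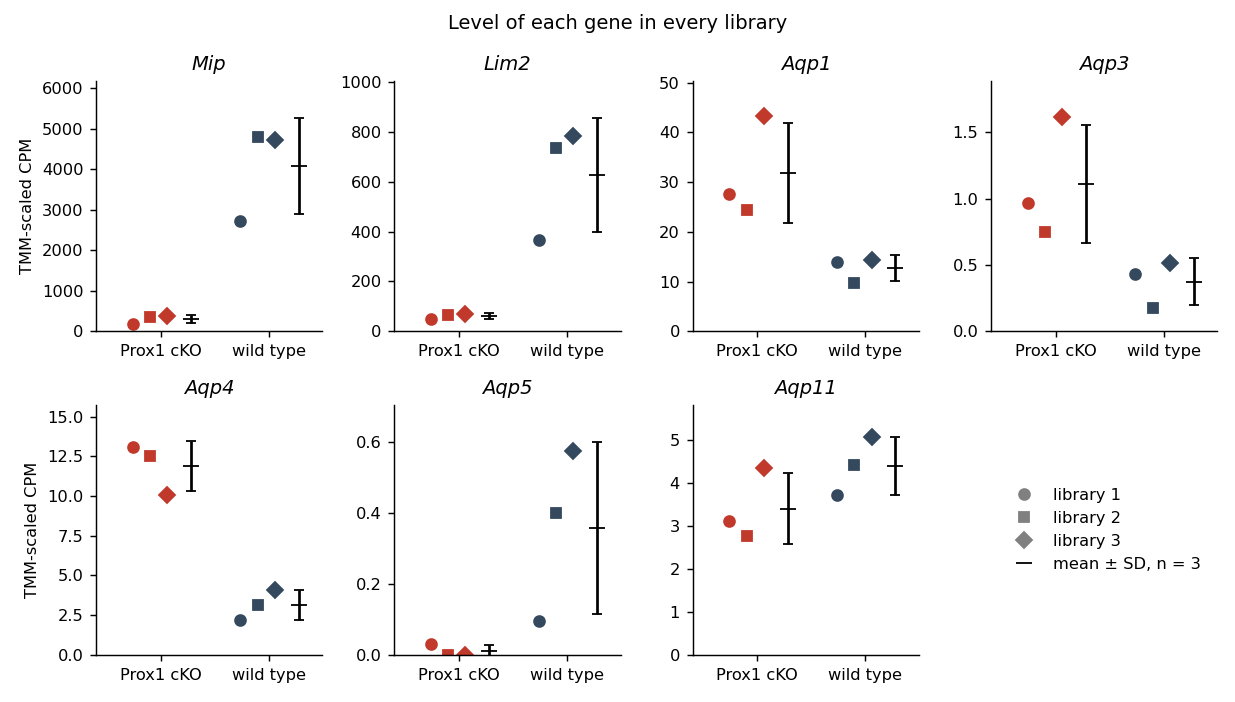
Level of each of the 7 genes in every library, in TMM-scaled CPM on linear axes that start at 0. Points are libraries, with Prox1 cKO left and wild type right, and black bars give the mean ± SD (n = 3). Mip lies between 189 and 386 CPM in cKO libraries and between 2721 and 4798 CPM in wild type libraries, while Aqp1, Aqp3 and Aqp4 lie higher in every knockout library than in any wild type library.

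Mip had 189, 346 and 386 CPM in Prox1 cKO libraries 1, 2 and 3, against 2721, 4798 and 4724 CPM in wild type libraries 1, 2 and 3. The highest knockout library held 14.2% of the level of the lowest wild type library, so the groups were far apart. The means were 307 ± 104 CPM in cKO lenses and 4081 ± 1178 CPM in wild type lenses (SD, n = 3 each). Mip fell 13.3-fold (log2 -3.73, SE 0.332, edgeR adjusted p 0.000195). Changes of at least 8-fold downward were called for 113 genes, 0.792% of those tested, and both Mip and Lim2 were among them. Mip stood 54th and Lim2 81st in order of size among the 2396 genes that fell. Wild type library 1 was the lowest of its group, and leaving it out gave a log2 change of -4.00. Because the RNA came from whole lenses, fewer fibre cells and less Mip RNA in each fibre cell cannot be told apart. The 5 lens fibre markers all fell as well, against 16.8% of all tested genes, with a median log2 change of -3.53. Their part in the changes of Mip and Lim2 was not tested.

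Mip (ENSMUSG00000025389) lies on GRCm38 chromosome 10, 128225838 to 128231812, plus strand, with 4 exons and 789 coding bases in the GENCODE M21 annotation. The long noncoding RNA gene Gm26847 (chromosome 10, 128230590 to 128232790) is read from the opposite strand and runs into the 3' end of Mip. Exons of Mip and Gm26847 overlap over 1223 bases, which make up 57% of the Mip exon bases and 58% of the Gm26847 exon bases, and all 1223 lie outside the Mip coding sequence. The libraries keep no strand, so a read in this overlap could come from either gene. Gm26847 had 14.2, 27.3 and 31.1 CPM in Prox1 cKO libraries 1, 2 and 3 and 253, 430 and 452 CPM in wild type libraries. Gm26847 was 16-fold lower (log2 -4.00, SE 0.337, edgeR adjusted p 0.000175). Its counts were 7.48%, 7.88% and 8.04% of the Mip counts in cKO libraries and 9.28%, 8.97% and 9.56% in wild type libraries. The share of counts assigned to Gm26847 was therefore lower in each knockout library than in any wild type library, by a small step beside the 13.3-fold fall of Mip.

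Lim2 is listed in the deposited tables as 3 numbered rows. The row numbered 2 holds 37104 of its counts over all libraries, row 1 holds 5 and row 3 holds 0, and the row numbered 2 was taken as the gene. Lim2 had 47.6, 66.5 and 68.7 CPM in Prox1 cKO libraries 1, 2 and 3, against 366, 734 and 783 CPM in wild type libraries 1, 2 and 3. As for Mip, knockout library 1 was the lowest of its group and wild type library 1 the lowest of the other. The means were 60.9 ± 11.6 CPM in cKO lenses and 628 ± 228 CPM in wild type lenses (SD, n = 3 each). Lim2 fell 10.3-fold (log2 -3.37, SE 0.298, edgeR adjusted p 0.00019). Wild type library 1 held 48.3% of the mean of the other wild type libraries, and without it the log2 change was -3.69. The gene (ENSMUSG00000093639 in the annotation, matched by name) lies on chromosome 7, 43427670 to 43435996, plus strand.

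How far Mip and Lim2 moved in step was read from their ratio. The log2 ratio of Mip to Lim2 within a library, with 0.5 CPM added to each, was 1.98, 2.37 and 2.48 in Prox1 cKO libraries and 2.89, 2.71 and 2.59 in wild type libraries. The ratio was lower in every knockout library, by 0.45 on average, and the two-sided exact permutation p was 0.10, the smallest that 3 libraries against 3 allow. Without 1 library the difference lay between -0.55 and -0.30. A difference in this ratio could not pass a threshold of 0.05 in this design.

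The bases just before the RefSeq start (GRCm38.p6) of Mip and Lim2 are shown because both genes fell, with those of Aqp1 and Aqp3, which rose, for contrast. Each runs 5' to 3' on the strand of the gene. The Lim2 window lies inside the gene as GENCODE M21 bounds it, because GENCODE includes a transcript that starts further upstream than the RefSeq one. Capitals mark matches, on either strand, to 4 short motifs searched by script: TGCTGA, the core of Maf binding sites; GGGCGG, the GC box; TATAAA, the TATA box; and TTCNNGAA, a pair of heat shock factor units.
Mip (chr10:128225560-128225809, plus strand): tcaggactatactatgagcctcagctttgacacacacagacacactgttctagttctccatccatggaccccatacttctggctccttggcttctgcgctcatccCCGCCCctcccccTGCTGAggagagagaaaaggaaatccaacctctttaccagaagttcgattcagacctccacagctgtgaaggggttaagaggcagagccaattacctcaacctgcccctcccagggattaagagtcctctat
Lim2 (chr7:43429849-43430087, plus strand): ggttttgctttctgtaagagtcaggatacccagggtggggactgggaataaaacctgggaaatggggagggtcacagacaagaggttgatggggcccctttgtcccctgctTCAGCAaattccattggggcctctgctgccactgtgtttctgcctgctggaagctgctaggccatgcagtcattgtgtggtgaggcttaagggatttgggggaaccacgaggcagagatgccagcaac
Aqp1 (chr6:55336049-55336298, plus strand): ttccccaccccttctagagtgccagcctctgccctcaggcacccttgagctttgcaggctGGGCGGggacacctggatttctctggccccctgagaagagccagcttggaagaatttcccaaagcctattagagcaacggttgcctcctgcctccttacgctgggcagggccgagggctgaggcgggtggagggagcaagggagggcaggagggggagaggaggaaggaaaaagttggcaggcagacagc
Aqp3 (chr4:41098184-41098433, minus strand): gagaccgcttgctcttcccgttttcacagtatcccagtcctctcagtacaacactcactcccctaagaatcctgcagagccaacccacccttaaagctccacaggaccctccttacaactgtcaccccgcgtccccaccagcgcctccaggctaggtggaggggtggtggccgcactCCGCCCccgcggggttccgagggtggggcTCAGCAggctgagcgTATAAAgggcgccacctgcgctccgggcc
The last 11 bases before the RefSeq start of Lim2 are not printed because the annotation places them in an untranslated exon. The Maf core was found 132 to 127 bases before the RefSeq start of Mip, 139 to 134 bases before that of Lim2 and 44 to 39 bases before that of Aqp3. The window of Aqp11 also held it, 41 to 36 bases before the RefSeq start but within bases that GENCODE annotates as exon. The windows of Aqp1 and Aqp5 did not hold it. Among 32841 windows of the 250 bases before a RefSeq gene start, 16.1% held it. The GC box, held by 32.7% of windows, was found in the windows of Mip, Aqp1 and Aqp3, and the TATA box, held by 12.4%, in that of Aqp3. The Aqp5 window held GC boxes 77 to 72 and 34 to 29 bases before the RefSeq start, within bases that GENCODE annotates as exon. The heat shock pair, held by 7.17%, matched in no window of these 6 genes. Aqp4, which also rose, was not searched. No capital run overlaps another. These matches describe the letters and say nothing about binding.

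Aqp5, a water channel best known from salivary and lacrimal glands and from corneal epithelium and also present in the lens, was close to the limit of detection. It had 1, 0 and 0 counts in Prox1 cKO libraries 1, 2 and 3, against 2, 7 and 10 counts in wild type libraries 1, 2 and 3. In a knockout library a count of 0 allows a level of up to 3 counts, which over the library total, without TMM, is 0.275 CPM in library 2 and 0.33 CPM in library 3. Over each group's counts the rate was 14.7-fold lower in cKO lenses, with an exact 95% interval from 2.33 to 610.1 that covers counting error only. Aqp5 did not pass the filter on low counts. Without that filter its log2 change was -3.89 (edgeR adjusted p 0.0182). The gene lies on chromosome 15, 99590782 to 99594829, between Aqp2 and Aqp6, with gaps of 6234 and 6570 bases. Aqp2, the vasopressin-regulated channel of the kidney, had 2, 0 and 0 counts in cKO libraries and 0, 0 and 1 in wild type libraries. Aqp6, an anion-conducting aquaporin of kidney cells, had 1, 0 and 0 counts in cKO lenses and 0, 0 and 1 in wild type lenses.

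Aqp1, the water channel of capillary endothelium, red cells and several eye epithelia, the lens epithelium included, rose. It had 27.6, 24.5 and 43.3 CPM in Prox1 cKO libraries 1, 2 and 3, against 14.0, 9.73 and 14.4 CPM in wild type libraries 1, 2 and 3. Every knockout library lay above the highest wild type library, and knockout library 3 was the highest of all. Aqp1 rose 2.48-fold (log2 1.31, SE 0.238, edgeR adjusted p 0.00456), and its log2 change lay between 1.04 and 1.46 without 1 library. Aqp1 (ENSMUSG00000004655) lies on chromosome 6, 55336432 to 55348555. The 8 blood vessel endothelium markers summed to 415, 538 and 553 CPM in cKO libraries and 476, 351 and 260 CPM in wild type libraries, with 1 of 8 higher (Cldn5, log2 0.50) and none at 0. The 8 erythroid markers summed to 1327, 2104 and 1778 CPM in cKO lenses and 2346, 1371 and 738 CPM in wild type lenses, so their groups overlapped, and 3 of 8, all globin genes, were higher. The 6 lens epithelium markers summed to between 2332 and 2547 CPM in cKO lenses and between 2435 and 2958 CPM in wild type lenses. Of these 6, 3 rose (Gja1, log2 1.28, Pdgfra, 0.80, and Cdh1, 0.70), 2 fell (Sfrp1, log2 -1.16, and Foxe3, -0.62) and none was at 0. Over all tested genes 15.9% were higher and 16.8% lower. The part of blood vessel, erythroid and lens epithelium cells in the change of Aqp1 was not tested.

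Aqp4, the water channel of glial endfeet that in the eye marks Müller glia and ciliary epithelium, had the largest increase of the 7 genes. It had 13.1, 12.5 and 10.1 CPM in Prox1 cKO libraries 1, 2 and 3, against 2.17, 3.15 and 4.09 CPM in wild type libraries 1, 2 and 3. The groups were separate, the lowest knockout library being 2.47 times the highest wild type library. Aqp4 rose 3.82-fold (log2 1.93, SE 0.245, edgeR adjusted p 0.000896). The gene is ENSMUSG00000024411 on chromosome 18, 15389496 to 15410982, minus strand, and its exons share no base with those of AC133525.2, an antisense gene whose annotated region overlaps part of it and runs beyond it. The 7 neural retina markers, none of which was at 0 throughout, summed to 543, 365 and 345 CPM in cKO libraries and 343, 216 and 230 CPM in wild type libraries. Of these, 2 of 7 rose, Six6 (log2 0.72) among them, against 15.9% of all tested genes. The mean of their summed level was 418 ± 109 CPM in cKO lenses and 263 ± 69.4 CPM in wild type lenses. Whether they account for any of the change of Aqp4 was not tested.

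Aqp3, a channel for water and glycerol found in surface epithelia such as skin, cornea and conjunctiva, was present at a trace. Its counts were 33, 9 and 16 in Prox1 cKO libraries 1, 2 and 3 and 9, 3 and 9 in wild type libraries 1, 2 and 3. Scaled by library, these were 0.97, 0.751 and 1.61 CPM in cKO lenses and 0.435, 0.172 and 0.518 CPM in wild type lenses. Aqp3 rose 2.83-fold (log2 1.5, SE 0.475, edgeR adjusted p 0.041), but the call was lost whichever library was left out, with edgeR adjusted p between 0.0531 and 0.144, and by DESeq2 (adjusted p 0.0723). The 8 surface ectoderm markers summed to 81.6, 45.8 and 143 CPM in cKO libraries and to 34.4, 11.9 and 24.3 CPM in wild type libraries. Of those 8 markers 7 rose, against 15.9% of all tested genes, and none was at 0 throughout. Their median log2 change was 1.82, against 0.04 over all tested genes. Among cKO libraries the order of the libraries was the same for Aqp3 and for the summed markers, with library 3 highest and library 2 lowest. Aqp1 and the summed markers of pigment cells and of periocular mesenchyme had this order too, so it is not particular to surface ectoderm. Among wild type libraries the order differed between Aqp3 and the surface ectoderm markers, with library 3 highest for Aqp3 and library 1 highest for the markers. The part of surface ectoderm cells in the change of Aqp3 was not tested. Aqp3 (ENSMUSG00000028435) lies on chromosome 4, 41092722 to 41098183, minus strand, and its nearest family member Aqp7, a glycerol channel of fat cells, lies 44582 bases away and had 5, 1 and 0 counts in cKO lenses and 4, 3 and 2 in wild type lenses.

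Markers of other tissue around the lens were also unequal between libraries. The 5 pigment cell markers summed to 354, 258 and 714 CPM in Prox1 cKO libraries 1, 2 and 3 and to 186, 79.3 and 165 CPM in wild type libraries 1, 2 and 3, and 4 of 5 rose. The 7 periocular mesenchyme markers summed to 743, 521 and 2403 CPM in cKO lenses and 424, 211 and 359 CPM in wild type lenses. Of these 2 of 7 rose, Foxc2 was listed at 0 throughout, and the share of all tested genes that rose was 15.9%. Knockout library 3 was the highest for these sums and for Aqp1 and Aqp3, whereas it was the lowest knockout library for Aqp4. Without knockout library 3 the log2 change was 1.04 for Aqp1 (edgeR adjusted p 0.0068), 2.04 for Aqp4 (0.00179) and 1.22 for Aqp3 (0.103).

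Aqp11, an aquaporin of intracellular membranes, was the tested member with no call. It had 3.12, 2.76 and 4.34 CPM in Prox1 cKO libraries 1, 2 and 3, against 3.72, 4.41 and 5.07 CPM in wild type libraries 1, 2 and 3, and the groups overlapped. Its log2 change was -0.38 (SE 0.241, edgeR adjusted p 0.248), and -0.02 with libraries scaled by their totals. Aqp11 (ENSMUSG00000042797) lies on chromosome 7, 97724006 to 97738289, minus strand.

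**Figure D2:**
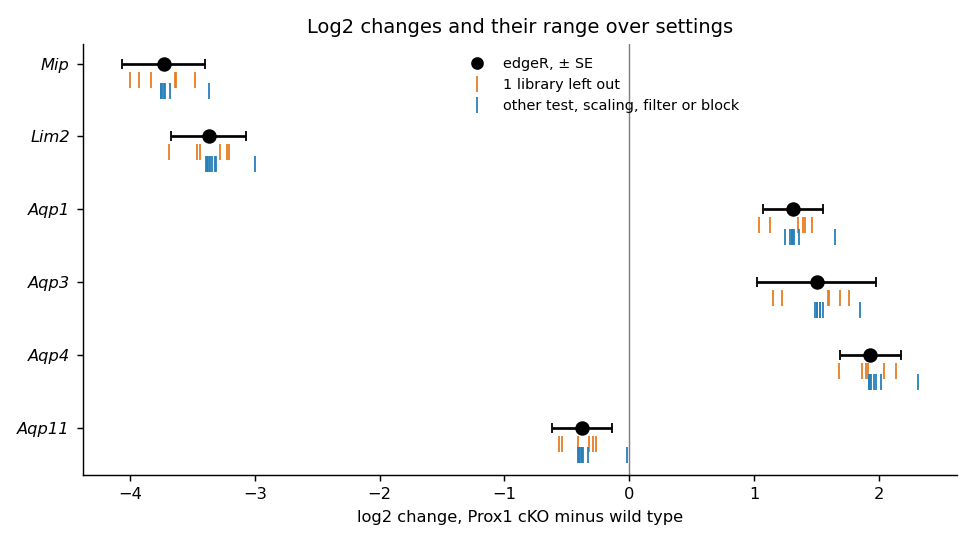
Log2 change of each tested gene, Prox1 cKO minus wild type, with its SE (black). Ticks below each point give the same value with 1 library left out (orange) and under other tests, scalings, filters or the replicate block (blue). Mip stays between -4.00 and -3.37, Lim2 reaches -3.69, Aqp1, Aqp3 and Aqp4 stay above 1, and Aqp11 reaches -0.02.

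Levels of different genes can be compared only per length, for which the RPKM of the authors (deposited CPM per kilobase of gene length) was used. RPKM is scaled by library totals, without TMM, which matters where the groups are compared. With library totals the log2 change was -3.37 for Mip and 1.65 for Aqp1, against -3.73 and 1.31 with TMM. Mip had 106, 177 and 197 RPKM in Prox1 cKO libraries and 1248, 1885 and 1839 RPKM in wild type libraries. Lim2 followed with 26.1, 33.5 and 34.4 RPKM in cKO lenses and 165, 284 and 299.9 RPKM in wild type lenses. In order of RPKM, Mip ranked 405th, 159th and 122nd of all features in knockout libraries 1, 2 and 3 and 25th, 21st and 20th in wild type libraries 1, 2 and 3. Lim2 ranked between 1420th and 2452nd in cKO lenses and between 76th and 179th in wild type lenses. Aqp1 averaged 13.6 ± 3.97 RPKM in cKO lenses and 4.31 ± 1.08 RPKM in wild type lenses (SD, n = 3 each). The order in cKO lenses was Mip, Lim2, Aqp1, Aqp11, Aqp4, Aqp3 and Aqp5, and Aqp11 (2.29 to 3.58 RPKM) and Aqp4 (2.17 to 3.08 RPKM) overlapped. In the wild type the order was the same, Aqp1 (3.12 to 5.24 RPKM) overlapped with Aqp11 (2.77 to 3.20 RPKM), and Aqp3 overlapped with Aqp5. The place of Aqp11 depends on its length, 1322 bases in the deposited values and 9418 bases of exon in GENCODE M21. With annotated lengths its mean RPKM would be 0.407 in cKO lenses and 0.411 in wild type lenses. Both means would lie below those of Aqp4, 2.16 in cKO lenses and 0.439 in wild type lenses. In wild type lenses Aqp11 and Aqp4 would overlap, with Aqp11 above Aqp4 in wild type library 1.

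**Figure D3:**
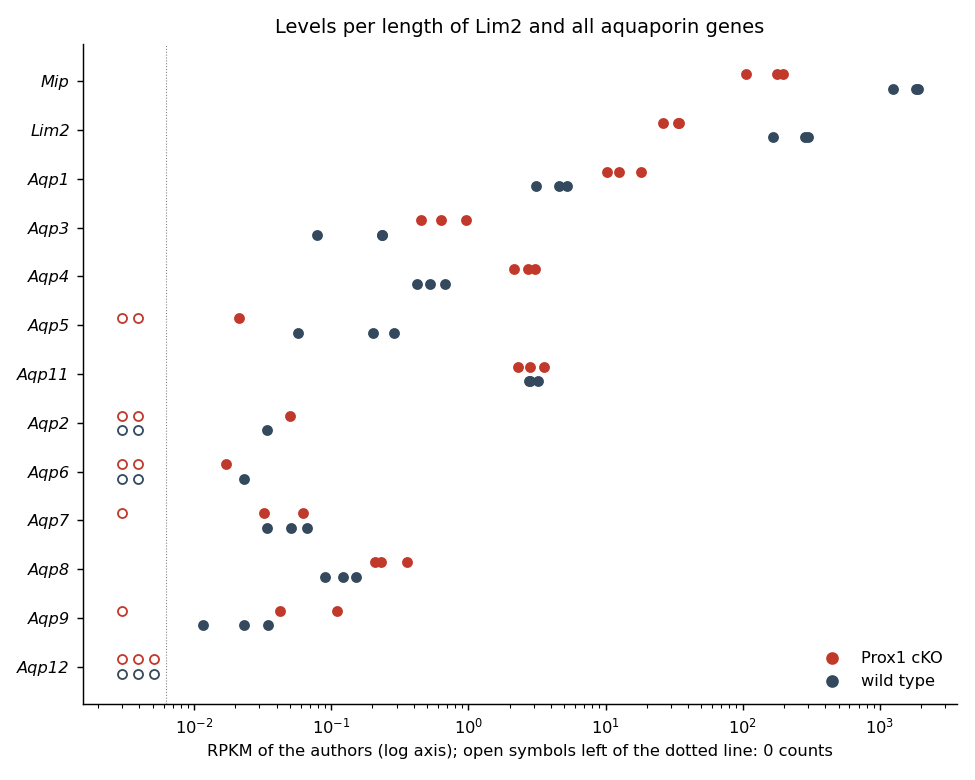
RPKM of Lim2 and the 12 aquaporin genes in every library on a log axis, Prox1 cKO (red) above wild type (blue) for each gene. Open symbols left of the dotted line are libraries with 0 counts. Mip in cKO lenses (106 to 197 RPKM) stays above every other aquaporin in either group.

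Within the family of 12 aquaporin genes, Mip held 84.3%, 91.7% and 88.8% of the summed RPKM in Prox1 cKO libraries 1, 2 and 3, against 99.3%, 99.6% and 99.5% in wild type libraries. Mip thus remained the main aquaporin transcript in cKO lenses at a lower total, 180.2 ± 49.4 RPKM for the family in cKO lenses and 1666 ± 355 RPKM in wild type lenses (SD, n = 3 each). The family without Mip summed to 20.2 ± 4.45 RPKM in cKO lenses and 8.35 ± 1.24 RPKM in wild type lenses (SD, n = 3 each), with no overlap between the groups. These sums lack the TMM correction. With library totals alone the median log2 change of all tested genes was 0.39, against 0.04 with TMM. Aqp1 made up 7.81 ± 2.39% of the family in cKO lenses and 0.276 ± 0.129% in wild type lenses (SD, n = 3 each). The other 6 family members (Aqp2, Aqp6, Aqp7, Aqp8, Aqp9 and Aqp12) all failed the filter on low counts. Aqp8, a channel of digestive epithelia and mitochondria, had 16, 4 and 3 counts in cKO lenses and 3, 4 and 5 in wild type lenses. Aqp9, a solute channel of liver and white blood cells, had 5, 5 and 0 counts in cKO lenses and 3, 2 and 1 in wild type lenses. Aqp12 was listed at 0 in all 6 libraries, which does not tell an absent transcript from a feature that was not counted.

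The ratio of Mip to each other tested aquaporin was lower in every knockout library than in any wild type library. The log2 ratio of Mip to Aqp1 within a library averaged 3.23 ± 0.53 in Prox1 cKO libraries and 8.24 ± 0.66 in wild type libraries (SD, n = 3 each). The ratio of Mip to Aqp4 averaged 4.58 in cKO lenses and 10.12 in wild type lenses. The ratio of Mip to Aqp3 averaged 7.55 in cKO lenses and 12.16 in wild type lenses, and the ratio of Mip to Aqp11 averaged 6.26 in cKO lenses and 9.67 in wild type lenses. The libraries of the groups did not overlap in any of these 5 ratios, Lim2 included. All 5 ratios share Mip, whose own libraries did not overlap between the groups, so they are not separate results. The share of all tested genes whose ratio to Mip does the same was not computed. Each two-sided exact permutation p was 0.10, also 0.10 adjusted over the 5 ratios, the smallest this design allows.

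**Figure D4:**
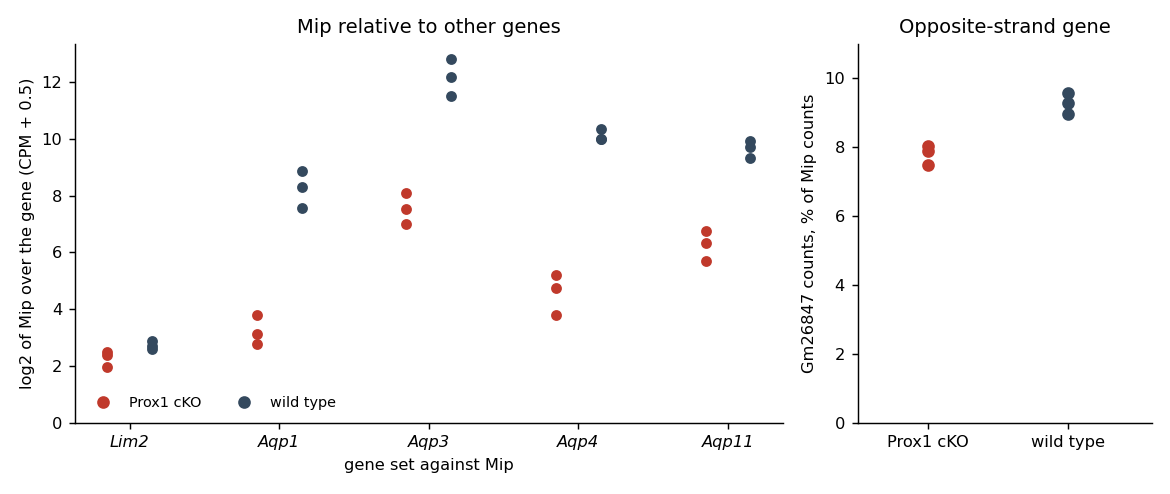
Left, log2 of Mip over each other tested gene within a library, from CPM with 0.5 added; right, Gm26847 counts as a percentage of Mip counts. Points are libraries, Prox1 cKO left of wild type. The mean difference, Prox1 cKO minus wild type, is -0.45 for the ratio to Lim2 and -5.01 for the ratio to Aqp1, and the Gm26847 share is 7.48% to 8.04% in cKO lenses and 8.97% to 9.56% in wild type lenses.

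The genes whose profile over the 6 libraries was closest to Mip were mostly crystallins. Likeness was the root mean square difference of log2 CPM after each gene was centred on its own mean, over genes of at least 10 CPM on average, and it includes the difference between the groups. The 5 nearest to Mip were Cryba4 (0.11), Cryge (0.11), Gm26847 (0.13), the BMP regulator gene Bmper (0.13) and Cryba2 (0.14). Gm26847 shares exon bases with Mip, and reads there could come from either gene. The 5 nearest to Lim2 were Caprin2 (0.06), which encodes an RNA-granule protein, Fam89a (0.09), Cryba1 (0.10), Gsn (0.11), which encodes the actin-severing protein gelsolin, and Crybb3 (0.11). Caprin2 had 112, 149 and 161 CPM in Prox1 cKO libraries and 789, 1625 and 1919 CPM in wild type libraries. Lim2 and Mip differed from each other by 0.28; Lim2 stood 22nd in the order of likeness to Mip, and Mip 35th in the order of likeness to Lim2.

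Of 16 genes for fibre membrane proteins and for proteins known to bind or sit beside Mip or Lim2, 9 fell, 1 rose and 6 were not called, with a median log2 change of -1.04, against 0.04 over all genes tested. Of all tested genes, 16.8% were lower and 15.9% higher. The beaded filament gene Bfsp1, whose protein binds the Mip tail, fell most (log2 -5.30, SE 0.705, edgeR adjusted p 0.00112). It had 20.4, 47.3 and 52.7 CPM in Prox1 cKO libraries and 387, 1799 and 2503 CPM in wild type libraries, and wild type library 1 was again the lowest of its group. The beaded filament gene Bfsp2 fell by 3.38 on the log2 scale. Tmod1, which encodes the actin-capping protein tropomodulin, fell by 3.35 and had 4.23, 6.51 and 8.17 CPM in Prox1 cKO libraries and 48.7, 65.2 and 70.6 CPM in wild type libraries. The connexin gene Gja3 fell by 2.36, with 86.3, 101 and 98.4 CPM in Prox1 cKO libraries and 341, 543 and 578 CPM in wild type libraries. Of smaller decreases, named after their values were seen, the scaffold gene Prx, for periaxin, fell by 1.43 (edgeR adjusted p 0.000583), Ank2, for an ankyrin, fell by 1.03 and the linker gene Ezr fell by 0.85. Lgals3, for the Lim2-binding lectin galectin-3, had 1.26 ± 0.148 CPM in cKO lenses and 2.61 ± 1.07 CPM in wild type lenses; it passed (log2 -1.07, edgeR adjusted p 0.0464) but the call was lost in 5 of 9 other fits, with adjusted p between 0.0507 (DESeq2) and 0.117 (edgeR, library totals), and when any library other than wild type 1 was left out. The adhesion gene Cdh2 was not called (log2 -0.14, edgeR adjusted p 0.352). Ahnak, for a large membrane scaffold, rose by 2.23 with values of 49.6, 146 and 348 CPM in cKO lenses and 45.8, 32.4 and 37.3 CPM in wild type lenses. Its edgeR adjusted p of 0.02 became 0.0868 without wild type library 2 and 0.0687 without wild type library 3.

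The 4 relatives of Lim2 in the PMP22 family of small 4-helix membrane proteins moved in both directions. Pmp22, the family's namesake and a myelin protein, fell by 1.98 on the log2 scale (edgeR adjusted p 0.00023), with 46.1, 49.3 and 57.9 CPM in Prox1 cKO libraries and 147, 241 and 217 CPM in wild type libraries. Emp2 rose by 1.65 (edgeR adjusted p 0.000589), with 7.32, 8.77 and 9.88 CPM in cKO lenses and 2.85, 2.75 and 2.59 CPM in wild type lenses. Emp1 rose by 0.77 (edgeR adjusted p 0.0103), but missed the threshold when the fit left out wild type library 3 (0.0509). Emp3 was not called (log2 0.93, edgeR adjusted p 0.0727). Emp1 and Emp2 are epithelial membrane proteins found in many epithelia.

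Of 18 genes for ion pumps, cotransporters and volume regulation, 16 were tested, of which 4 rose, 2 fell and 10 were not called. The median log2 change of the 16 was 0.47, against 0.04 over all tested genes. Over all tested genes 32.6% were called, and the called share of this list, 37.5%, was close to that. Stk39, for the kinase SPAK that switches cation-chloride cotransporters, fell by 2.00 (edgeR adjusted p 0.000141), with 73.2, 90.7 and 87.2 CPM in Prox1 cKO libraries and 263, 364 and 375 CPM in wild type libraries. The sodium pump subunit gene Atp1b3 rose by 0.72 (edgeR adjusted p 0.00262). The cotransporter gene Slc12a7 rose by 0.55 (edgeR adjusted p 0.0317), and its call was lost in 5 of the 6 fits that left a library out. The chloride transporter gene Clcn3 fell by 0.38, but its log2 change was -0.03 with libraries scaled by their totals, and it was not called then. Trpv1 and Lrrc8a failed the filter on low counts. The cotransporter gene Slc12a2 (log2 -0.04, edgeR adjusted p 0.79) and the osmosensitive channel gene Trpv4 (0.01, 0.986) were not called.

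Of 9 transcription factor genes that act in the lens or at the Mip promoter, 8 were tested. Of these, 2 rose, 4 fell and 2 were not called. The median log2 change of the 8 was -0.47, against 0.04 over all tested genes. Over all tested genes 15.9% were higher and 16.8% lower. The genes that fell include Prox1, the target of the knockout, and the median of the other 7 was -0.32. Hsf4, a heat shock factor of fibre cells, fell most (log2 -3.57, SE 0.317, edgeR adjusted p 0.000195), with 8.32 to 14.1 CPM in Prox1 cKO libraries and 75.6 to 162 CPM in wild type libraries. Maf fell by 0.77 (edgeR adjusted p 0.0187), and missed the threshold when knockout library 3 (0.0565), wild type library 2 (0.0735) or wild type library 3 (0.0674) was left out. Foxe3 fell by 0.62, but missed the threshold when the fit left out wild type library 2 (0.0619) or 3 (0.0856). With libraries scaled by their totals Prox1 (edgeR adjusted p 0.0532), Maf (0.0684) and Foxe3 (0.279) missed the threshold as well. Foxe3 also missed it with the replicate number as a block (edgeR adjusted p 0.0528). Sp1, whose zinc finger protein binds GC boxes, rose by 0.32 (edgeR adjusted p 0.0391), but missed the threshold when the fit left out wild type library 2 (0.16) or 3 (0.195) or knockout library 2 (0.111) or 3 (0.0908). Sp1 also missed it with no filter on low counts (edgeR adjusted p 0.0577) and with the replicate block (0.0742). Pax6 rose by 0.46, but missed the threshold when the fit left out wild type library 2 (0.116) or 3 (0.0875). Sp3 (log2 0.19) and Pitx3 (-0.32) were not called. Sox1 was listed at 0 in every library, which does not tell an absent transcript from a feature that was not counted.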

How the data were processed

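Per the labels' protocols, poly(A) RNA of pooled lenses was made into libraries with a TruSeq RNA kit that keeps no strand and was read as single-end 51 bp reads. The submitters' processing notes list edgeR and the build GRCm38; which aligner, counter and gene models were used is not given in these sources. Per the file headers, each deposited table holds 3 values per feature: raw count, CPM and RPKM. The deposited CPM equals the count over the library total within 1e-06, except in 26 features, none of them a gene described here, which were left out. The deposited RPKM is that CPM per kilobase of 1 length per feature.

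Counts were fitted in R 4.3.3 with edgeR 4.0.16 (filterByExpr with a minimum count of 10, TMM, quasi-likelihood test, group as the only term), and p-values were adjusted over all tested genes. Intervals and floors of 3 counts cover counting error only. Alternatives were DESeq2 1.42.0, limma-voom (limma 3.58.1), other scalings and filters, a replicate block and leaving out each library. The fits were tested on simulated data. Exact permutation tests used Python 3.11.15. Coordinates and exon overlaps came from GENCODE M21 and upstream sequences from RefSeq (GRCm38.p6), both of the same build as the files. Upstream windows were taken for 6 of the 7 genes, matched by symbol, and Aqp4 was left out.

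The genes and lists were chosen with earlier results of these data known. Named genes were the 7 members, all other aquaporins, called list members in order of size, the 5 nearest profiles to Mip and Lim2, and genes whose exons overlap a member. Some list members are counted but not reported here by name.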

Additional observations from a re-analysis of the deposited data

How the results depend on the processing

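Mip, Lim2, Aqp1 and Aqp4 kept their direction and their side of the threshold in all 9 other fits and all 6 fits without 1 library. Over the 9 other fits the log2 change lay between -3.75 and -3.37 for Mip, between -3.39 and -3.0 for Lim2, between 1.25 and 1.65 for Aqp1 and between 1.92 and 2.31 for Aqp4. The smallest decreases of Mip and Lim2 and the largest increases of Aqp1 and Aqp4 came with libraries scaled by their totals. Without 1 library the ranges were -4.00 to -3.48 for Mip, -3.69 to -3.21 for Lim2, 1.04 to 1.46 for Aqp1 and 1.68 to 2.14 for Aqp4. Aqp3 was called in 7 of 8 other fits but not by DESeq2 (log2 1.53), and without 1 library its log2 change lay between 1.15 and 1.76 and was never called; it could not be tested with a filter of 1 CPM. Aqp11 was called in none, with a range of -0.56 to -0.27 without 1 library.

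With libraries scaled by their totals alone, 5423 genes were higher and 945 lower, and the median of all genes was 0.39; relative to that median Mip was at -3.77, the same as in the TMM fit, and Aqp11 at -0.41. That scaling gave 3 higher fibre membrane partner genes, 8 higher and 1 lower ion and volume genes and 1 lower transcription factor gene. Without 1 library the called genes numbered 2267 to 5317, of which 836 to 2400 were higher and 1431 to 2917 lower, with the fewest without wild type library 2 (2267) or 3 (2475). In the same fits, higher genes numbered 0 to 1 for fibre membrane partners, 1 to 3 for Lim2 relatives, 1 to 5 for ion and volume genes and 0 to 2 for transcription factors, and lower genes numbered 1 to 3 for ion and volume genes and 2 to 5 for transcription factors. With no filter on low counts 1 transcription factor gene was higher. The cause of these shifts was not tested.

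Whether the replicate numbers pair the libraries is not known. Deviations of same-numbered libraries from their group means correlated at -0.0276, 0.254 and 0.111 across genes. Knockout libraries 2 and 3 correlated best with their own number, and knockout library 1 did not. These values cannot settle pairing, because deviations within a group of 3 libraries constrain one another. With the number as a replicate block, 2020 genes were higher and 2156 lower, 0 fibre membrane partner genes and 1 transcription factor gene were higher, and Mip was at -3.75. At these depths Aqp3 and Aqp5 rest on few counts. Without 1 library the difference in the log2 ratio of Mip to Lim2 lay between -0.55 and -0.30; with 0.1 CPM added in place of 0.5 the difference was -0.44, and with 2 CPM added it was -0.48.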
